A study of Homo sapiens with 44 samples.

Results

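Transcripts of 10 enzymes that build or trim the sugar chains of proteins were followed in prostate cancer xenografts under antiandrogen treatment. The genes are ST6GALNAC1, ST6GAL1, GCNT1, GALNT7, UAP1, GNPNAT1, PGM3, EDEM3, TUSC3 and CSGALNACT1. They were chosen by name from the 23368 gene symbols of the count table, as glycosylation enzymes held to be regulated by androgen. The choice was made with earlier results of these data known. All 10 were among the 13520 genes with enough counts to be tested. The name of the set refers to androgen, whereas the tumors were compared only with and without an antiandrogen.

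All tumors grew from VCaP, an established line of human prostate cancer cells that carry the TMPRSS2-ERG fusion. The hosts, athymic nude mice (HSD:Athymic Nude–Foxn1nu), lack T cells. Every mouse, those of the vehicle arm included, had been castrated, and dosing began once serum PSA was back at its level before castration, so the vehicle tumors were castration-resistant tumors and not tumors of intact mice. There were 3 arms: vehicle (15 tumors), enzalutamide (13 tumors used) and ARN-509 (15 tumors), each drug given by daily gavage at 20 mg/kg/day, with tumors analysed after 4 weeks. Enzalutamide and ARN-509, now called apalutamide, are both antiandrogens. The labels give as many treated mice as libraries per arm, so libraries were treated as separate tumors of separate mice.

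Glycosylation attaches sugars to proteins in the endoplasmic reticulum and Golgi. N-glycans are preassembled on the lipid dolichol, moved onto asparagine by the oligosaccharyltransferase complex and trimmed while the protein folds. O-glycans start with a GalNAc on serine or threonine and are then extended, branched or capped with sialic acid. Both kinds, and the chondroitin chains of proteoglycans, draw on nucleotide sugars such as UDP-GlcNAc, the product of the hexosamine pathway. In prostate cancer, changed O-glycans and sialic acid caps on the cell surface are a well known feature, and several of the enzymes are described as androgen-responsive in cultured cells.

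The 43 libraries held 4.19 to 25.8 M counts (M is the prefix mega) in the vehicle arm, 4.72 to 16.9 M in the enzalutamide arm and 3.38 to 30.1 M in the ARN-509 arm. A further library, enzalutamide 4, held 80142 counts, of which each of the 10 genes had 0 to 7, and it was left out by the rule that chose the genes. Vehicle 8 and vehicle 10 stood apart from their arm, with a Pearson r across genes of 0.889 and 0.916 to the mean of the other vehicle libraries. The cell line's identity was checked on luminal and VCaP markers, and KLK3, ERG and KRT18 had enough counts to be tested. In the order vehicle, enzalutamide and ARN-509 their median levels were 296, 254 and 203 CPM (counts per M) for KLK3, 610.1, 598 and 491 CPM for ERG and 154, 154 and 136 CPM for KRT18. All 3 were lower under ARN-509 than under vehicle by edgeR's test. Markers of other cell types were low. The 8 fibroblast markers summed to 8.14 to 37.5 CPM in vehicle tumors, 6.48 to 25.3 CPM under enzalutamide and 6.03 to 24.3 CPM under ARN-509, with DCN at a median of 0 in every arm. The 6 endothelial markers summed to 2.0 to 6.69, 0.405 to 2.73 and 0.21 to 1.67 CPM in the same order, with CDH5, KDR and EMCN at a median of 0. The 7 leukocyte markers summed to 4.08 to 10.4, 4.51 to 9.62 and 4.57 to 11.2 CPM, with PTPRC and CD3E at a median of 0, and the 4 erythrocyte markers had median sums of 1.07, 1.11 and 1.16 CPM. Since stroma in a xenograft is murine, such counts are either of the tumor cells or of mouse reads assigned to human genes. The luminal genes named and the summed fibroblast and endothelial levels thus moved with the arms, and their part in the results on the 10 genes was not tested. In bulk tissue, fewer cells of a type and less RNA per cell cannot be told apart.

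The promoter bases before the start site are shown for UAP1 and GALNT7, whose transcripts fell under both drugs, and for EDEM3, whose transcript differed between the drugs. RefSeq (GRCh38.p14) gave a promoter for 7 of the 10 genes, ST6GALNAC1, TUSC3 and CSGALNACT1 being the exceptions, and each sequence below is the 250 bases before the gene's start, 5′ to 3′ on the gene's strand. Capitals mark the only motif match found. The UAP1 promoter lies at chr1:162561281-162561530 on the plus strand, the GALNT7 promoter at chr4:173168561-173168810 on the plus strand and the EDEM3 promoter at chr1:184754859-184755108 on the minus strand.
UAP1: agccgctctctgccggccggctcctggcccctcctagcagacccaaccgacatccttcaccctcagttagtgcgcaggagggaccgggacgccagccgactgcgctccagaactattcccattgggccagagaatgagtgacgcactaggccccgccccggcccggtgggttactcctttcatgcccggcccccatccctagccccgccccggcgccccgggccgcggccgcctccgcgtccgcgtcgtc
GALNT7: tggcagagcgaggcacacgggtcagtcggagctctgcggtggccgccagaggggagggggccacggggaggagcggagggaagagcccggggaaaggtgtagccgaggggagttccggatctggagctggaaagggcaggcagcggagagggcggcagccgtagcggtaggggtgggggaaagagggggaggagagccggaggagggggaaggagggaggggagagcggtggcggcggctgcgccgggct
EDEM3: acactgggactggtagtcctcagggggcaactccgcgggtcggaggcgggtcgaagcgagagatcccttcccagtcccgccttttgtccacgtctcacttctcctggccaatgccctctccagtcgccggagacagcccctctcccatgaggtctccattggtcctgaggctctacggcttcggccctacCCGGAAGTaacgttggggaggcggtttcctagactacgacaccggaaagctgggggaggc

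These 3 windows are rich in G and C, at 71.2% for UAP1, 72.4% for GALNT7 and 63.2% for EDEM3. Windows of 300 bases, from 250 before to 50 after a start, were searched on both strands for the palindromic androgen response element (AGAACA and TGTTCT with 3 bases between them), its half-site alone (AGAACA or TGTTCT), the forkhead motif TGTTTAC and the ETS motif CCGGAAGT. A full element contains both half-sites, so these matches overlap. Of the 34943 promoters in the RefSeq table, 0.00286% held the full element, 14.8% a half-site, 3.42% the forkhead motif and 4.11% the ETS motif. Among the windows of the 7 genes, alternative starts included, the ETS match of EDEM3, whose first base lies 60 bases before the start, was the only match. These are matches of letters near a start site and say nothing about binding there or at distant sites.

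No enzyme of the set rose under either drug. Under enzalutamide 5 of the 10 fell (ST6GALNAC1, GALNT7, UAP1, CSGALNACT1 and GCNT1) and the other 5 did not pass the test, while under ARN-509 4 of the 10 fell (ST6GALNAC1, UAP1, GALNT7 and GNPNAT1) and 6 did not pass. The test was edgeR's quasi-likelihood test on the whole table with a Benjamini-Hochberg adjusted p below 0.05, and all adjusted p-values of genes are from it. Of all 13520 genes, 5.67% fell and 5.1% rose under enzalutamide (10.8% in all), and 16.1% fell and 14.7% rose under ARN-509 (30.8% in all). Since the 10 were chosen with earlier results of these data known, the shares are given as a description only. With library totals as the only scaling, 838 genes rose and 600 fell under enzalutamide and 2713 rose and 1466 fell under ARN-509, in place of 689 and 766 and of 1988 and 2178, and still none of the 10 rose. The median log2 fold change of the 10 was -0.41 under enzalutamide (all genes -0.004) and -0.13 under ARN-509 (all genes -0.001), with 9 and 8 of the 10 values below 0. Without adjustment, 7 and 4 of the 10 had p below 0.05. The 2 comparisons share the vehicle tumors, so their values are not independent of each other.

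**Figure D1:**
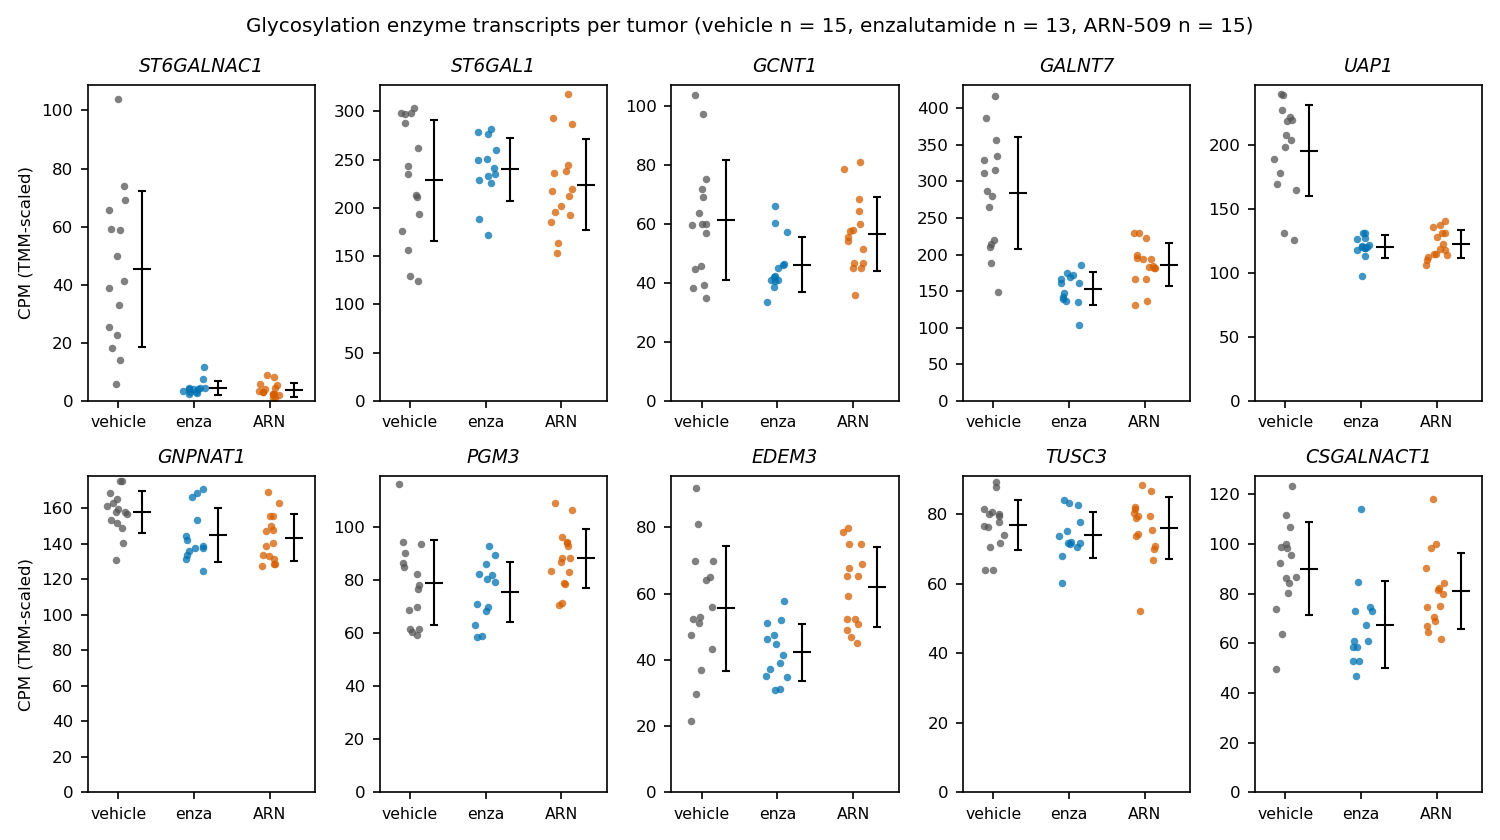
Level of each of the 10 enzyme transcripts in every tumor, in CPM scaled by TMM (y axis, from 0), by arm (x axis; enza is enzalutamide, ARN is ARN-509). Points are tumors and bars are mean ± SD. The drug-treated tumors sit together at the bottom of the ST6GALNAC1 panel and below most vehicle tumors for UAP1 and GALNT7, and the arms overlap throughout for ST6GAL1 and TUSC3.

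**Figure D2:**
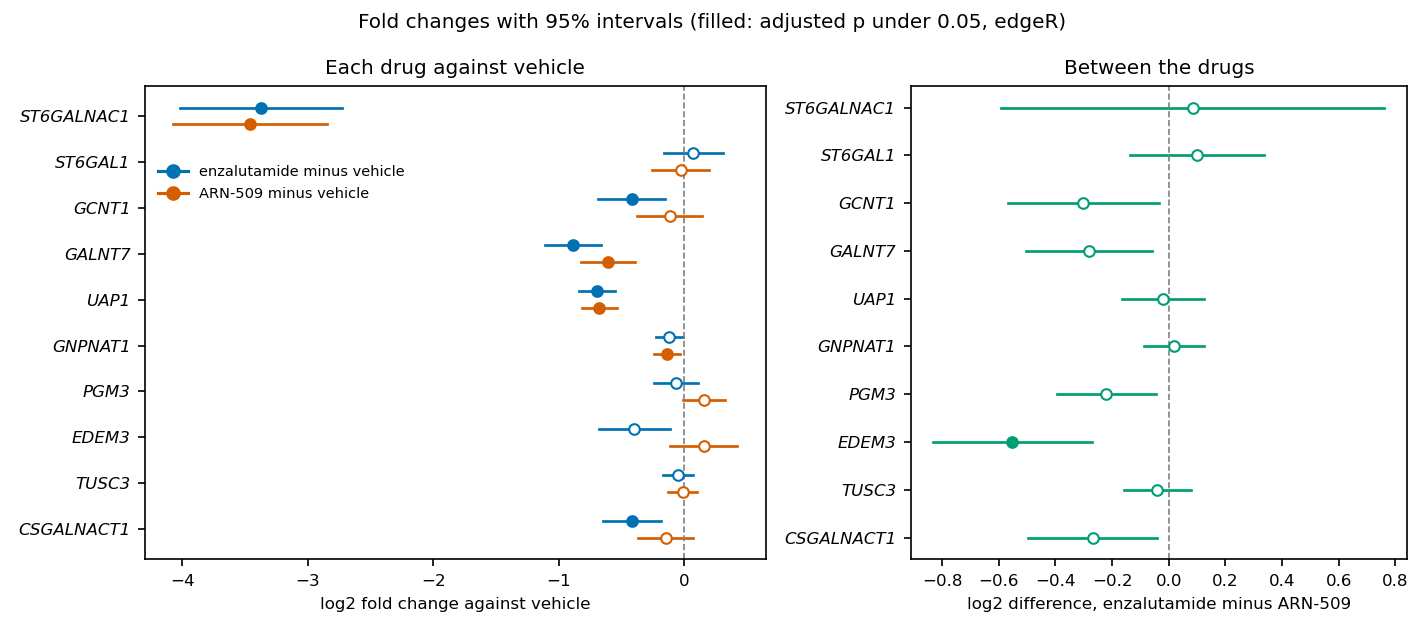
Log2 fold change of each enzyme with its 95% interval (x axis), for each drug against vehicle (left) and for enzalutamide against ARN-509 (right). Filled points passed the edgeR test. ST6GALNAC1 stands near -3.4 under both drugs, and EDEM3 is the only filled point between the drugs.

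ST6GALNAC1 adds sialic acid to the GalNAc that starts an O-glycan and so makes the sialyl-Tn antigen. In the 15 vehicle tumors its level ran from 5.76 to 104 CPM with a median of 41.4 CPM. Enzalutamide tumors had 2.33 to 11.6 CPM with a median of 4.13 CPM (n = 13), and ARN-509 tumors had 0.984 to 8.94 CPM with a median of 2.94 CPM (n = 15). In 14 of 15 vehicle tumors the level was above the highest value of either drug arm, and vehicle 11 was the exception. Of the treated tumors, 11 of 13 under enzalutamide and 12 of 15 under ARN-509 lay below that vehicle tumor. The means were 45.4 ± 26.8, 4.54 ± 2.46 and 3.85 ± 2.41 CPM (SD) for vehicle, enzalutamide and ARN-509. Against vehicle the gene was 10.4-fold lower under enzalutamide, a log2 fold change of -3.37 ± 0.32 (SE, 95% interval -4.02 to -2.73, adjusted p = 2.55e-10). Under ARN-509 it was 11-fold lower, at -3.46 ± 0.30 (-4.07 to -2.85, adjusted p = 3.01e-11). The vehicle tumors spanned a wide range, with a coefficient of variation of 59.0%. The low values rest on few reads, at least 15 counts per enzalutamide library and at least 4 per ARN-509 library, and vehicle 11 had 26 counts.

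ST6GAL1, the other sialyltransferase of the set, adds sialic acid to the galactose ends of N-glycans. Its levels were 124 to 303 CPM in vehicle tumors (median 235), 172 to 281 CPM under enzalutamide (median 242) and 153 to 318 CPM under ARN-509 (median 218). The arms overlapped almost completely. The log2 fold changes were 0.07 ± 0.12 under enzalutamide (95% interval -0.17 to 0.31, adjusted p = 0.772) and -0.03 ± 0.11 under ARN-509 (-0.26 to 0.20, adjusted p = 0.864).

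GALNT7 belongs to the family that places GalNAc on proteins to start O-glycans, and works mainly next to sites that already carry a GalNAc. Vehicle tumors had 149 to 417 CPM with a median of 287 CPM, enzalutamide tumors 103 to 186 CPM with a median of 161 CPM, and ARN-509 tumors 131 to 230 CPM with a median of 184 CPM. All vehicle tumors but vehicle 8 exceeded every enzalutamide tumor, and 10 of 15 exceeded every ARN-509 tumor. The gene fell by 0.89 ± 0.11 on the log2 scale under enzalutamide (95% interval -1.11 to -0.67, adjusted p = 8.71e-08) and by 0.61 ± 0.11 under ARN-509 (-0.82 to -0.40, adjusted p = 2.81e-05). Between the drugs the difference, enzalutamide minus ARN-509, was -0.28 ± 0.11 (-0.50 to -0.06) with an adjusted p of 0.0507.

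GCNT1 forms the branch of O-glycans on which longer chains are built. Its levels were 35.1 to 104 CPM in vehicle tumors (median 60.1), 33.5 to 66.3 CPM under enzalutamide (median 42.4) and 36.1 to 81.1 CPM under ARN-509 (median 55.6). The arms overlapped, and 11 of 13 enzalutamide tumors lay below the vehicle median. It fell by 0.42 ± 0.13 under enzalutamide (adjusted p = 0.0332), whereas its value under ARN-509 was -0.12 ± 0.13 (95% interval -0.37 to 0.14, adjusted p = 0.499). The enzalutamide call is near the threshold: it was lost when any of 8 single libraries was left out (vehicle 1, 2 or 3, or enzalutamide 1, 5, 7, 9 or 13), with adjusted p up to 0.0833 without vehicle 1, and also when only the 2 arms were fitted (0.0571) or after adjustment of each library for GC content and transcript length, called the GC adjustment from here on (0.0535). GCNT1 exons overlap those of PRUNE2 on the opposite strand, the gene has 5 processed pseudogenes, and the library kit does not mark strand, so its counts are uncertain. GALNT7, GNPNAT1 and PGM3 also overlap genes on the opposite strand, none of which is listed by the same symbol in the count table. Other symbols of those genes were not looked up, so whether they were counted is not known.

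UAP1 makes UDP-GlcNAc in the last step of the hexosamine pathway. Its levels were 126 to 240.2 CPM in vehicle tumors (median 204), 97.4 to 132 CPM under enzalutamide (median 121) and 107 to 140.3 CPM under ARN-509 (median 119). The highest values of both drug arms were exceeded by 13 of 15 vehicle tumors, all but vehicle 11 and vehicle 12. Of the treated tumors, 9 of 13 under enzalutamide and 9 of 15 under ARN-509 lay below every vehicle tumor. UAP1 fell by 0.70 ± 0.07 under enzalutamide (95% interval -0.84 to -0.55, adjusted p = 1.66e-09), from 196 ± 35.8 to 121 ± 8.80 CPM. Under ARN-509 it fell by 0.68 ± 0.07 (-0.82 to -0.54, adjusted p = 9.95e-10), to 122.5 ± 10.9 CPM. The treated tumors also resembled each other more closely, with a coefficient of variation of 7.29% and 8.87% against 18.3% in vehicle tumors. This was not particular to UAP1. The vehicle arm also varied most for ST6GAL1, GCNT1, GALNT7, PGM3 and EDEM3, though not for ST6GALNAC1, GNPNAT1, TUSC3 or CSGALNACT1.

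PGM3 and GNPNAT1 act before UAP1 in the same pathway. GNPNAT1 acetylates glucosamine phosphate, and its levels were 131 to 176 CPM in vehicle tumors (median 158), 125 to 171 CPM under enzalutamide (median 139) and 128 to 169 CPM under ARN-509 (median 140.3). The arms overlapped, with 13 of 15 ARN-509 tumors below the vehicle median. It fell by 0.14 ± 0.05 under ARN-509 (95% interval -0.24 to -0.04, adjusted p = 0.0351), and its enzalutamide value was -0.12 ± 0.05 (-0.23 to -0.01, adjusted p = 0.143). The ARN-509 call was lost when any of 8 single libraries was left out (vehicle 9 or 15, or ARN-509 1, 2, 6, 9, 14 or 15; adjusted p up to 0.06), with library totals as the only scaling (-0.08, adjusted p = 0.196), with all libraries fitted (0.0518) and without the filter on low counts (0.0577).

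PGM3 converts the acetylated glucosamine phosphate for use by UAP1. Its levels were 59.4 to 116 CPM in vehicle tumors, 58.5 to 92.8 CPM under enzalutamide and 70.7 to 109 CPM under ARN-509, with medians of 78.0, 79.4 and 88.4 CPM. Its log2 fold changes were -0.06 ± 0.09 (adjusted p = 0.712) and 0.16 ± 0.08 (adjusted p = 0.149), and neither passed the test. Leaving out vehicle 1, the highest vehicle tumor for this gene, gave an ARN-509 value of 0.21 (adjusted p = 0.0396), and the GC adjustment gave -0.02 (adjusted p = 0.836).

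EDEM3 trims mannose from misfolded glycoproteins and so marks them for degradation. Vehicle tumors had 21.5 to 92.0 CPM (median 53.0), enzalutamide tumors 30.9 to 57.9 CPM (median 41.4) and ARN-509 tumors 45.1 to 79.9 CPM (median 65.2). Of the enzalutamide tumors, 12 of 13 lay below the vehicle median, and 8 of 13 lay below every ARN-509 tumor. The enzalutamide value of -0.40 ± 0.14 missed the threshold (adjusted p = 0.0562), and the ARN-509 value was 0.15 ± 0.13 (adjusted p = 0.380). Without vehicle 8, the lowest vehicle tumor, the enzalutamide value was -0.46 (adjusted p = 0.00994), and without vehicle 8 and vehicle 10 it was -0.42 (adjusted p = 0.022). It also passed by DESeq2 (adjusted p = 0.0397) and limma voom (0.00296), and without vehicle 7, 11 or 13 or enzalutamide 8 or 10 (0.0236 to 0.0446).

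TUSC3 is a subunit of the oligosaccharyltransferase complex, in which it acts as an oxidoreductase that helps glycosylate sites near cysteines. Its means were 76.8 ± 7.23 CPM in vehicle tumors, 74.0 ± 6.72 CPM under enzalutamide and 76.0 ± 8.89 CPM under ARN-509. These are among the steadiest values of the set, and the 95% intervals of the log2 fold changes were -0.17 to 0.07 and -0.13 to 0.10 (adjusted p = 0.635 and 0.869). After the GC adjustment the ARN-509 value was -0.16 (adjusted p = 0.0486).

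CSGALNACT1 starts the chondroitin chain of proteoglycans by placing GalNAc on the linker. Vehicle tumors had 49.7 to 124 CPM (median 92.4), enzalutamide tumors 46.8 to 114 CPM (median 60.9) and ARN-509 tumors 61.6 to 118 CPM (median 79.8). Ranges overlapped, although 12 of 13 enzalutamide tumors lay below the vehicle median. It fell by 0.42 ± 0.11 under enzalutamide (95% interval -0.64 to -0.19, adjusted p = 0.0108), from 90.2 ± 18.7 to 67.6 ± 17.6 CPM. Enzalutamide 14 was the highest tumor of its arm by far, and without it the value was -0.50 (adjusted p = 0.000756). Under ARN-509 the value was -0.15 ± 0.11 (-0.37 to 0.07, adjusted p = 0.299).

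Whether the enzymes responded differently to the 2 drugs was tested by comparing the drug arms directly, at the same dose and time. EDEM3 was the only enzyme past the test, lower under enzalutamide than under ARN-509 by 0.55 ± 0.14 on the log2 scale (95% interval -0.83 to -0.27, adjusted p = 0.00581). Of all genes 26.8% differed between the drugs, 14.6% being lower and 12.2% higher under enzalutamide, so 1 of 10 is no more than the share of all genes. For ST6GALNAC1 the difference was 0.09 ± 0.34 (-0.59 to 0.76, adjusted p = 0.873) and for UAP1 -0.02 ± 0.07 (-0.17 to 0.13, adjusted p = 0.858). GCNT1 (-0.30, adjusted p = 0.0813), CSGALNACT1 (-0.27, adjusted p = 0.0676), PGM3 (-0.22, adjusted p = 0.0531) and GALNT7 (-0.28) had values below 0 that missed the threshold, and GNPNAT1 (0.02), TUSC3 (-0.04) and ST6GAL1 (0.10) were nearer to 0. GALNT7 and PGM3 passed as well with library totals, by DESeq2, by limma voom, with only the arms compared and without vehicle 8 and vehicle 10. GCNT1 passed by limma voom (adjusted p = 0.0248), with only the arms compared (0.0285), without enzalutamide 12 (0.0477) and without ARN-509 5 (0.0482). CSGALNACT1 passed by limma voom (adjusted p = 0.00641), without vehicle 8 and vehicle 10 (0.0426), and without vehicle 8 (0.0471), enzalutamide 14 (-0.36, 0.0123) or ARN-509 4 (0.0469) alone. Whether these 4 enzymes passed between the drugs thus depended on the setting.

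The median level of G and C rich genes relative to G and C poor genes differed between the arms, but the ranges overlapped and no test was made. Genes with at least 55% G and C had a mean log2 level, relative to genes under 45%, with a median of -0.37 in vehicle libraries (-0.66 to 0.306). The median was -0.27 under enzalutamide (-0.469 to 0.321) and -0.58 under ARN-509 (-1.03 to -0.171). Of the 10 enzymes, TUSC3 (38.4% G and C), EDEM3 (38.6%), GALNT7 (38.8%), GCNT1 (39%), PGM3 (39.2%) and GNPNAT1 (39.8%) are the poorest in G and C, against 48.6% for the median tested gene. Between the drugs EDEM3, GALNT7, GCNT1 and PGM3 had -0.55 to -0.22, while TUSC3 and GNPNAT1 had -0.04 and 0.02. Each of these G and C poor genes had a higher value after the GC adjustment than before it. The part of base composition in their differences was not tested. After the GC adjustment, EDEM3 differed between the drugs by -0.25 (adjusted p = 0.0676), GALNT7 by -0.08, PGM3 by 0.04, GCNT1 by -0.04, CSGALNACT1 by -0.20, TUSC3 by 0.14 and GNPNAT1 by 0.18, and none of the 10 passed the test. Against vehicle the same adjustment left ST6GALNAC1 at -3.42 and -3.38, UAP1 at -0.72 and -0.68 and GALNT7 at -0.83 and -0.74 for enzalutamide and ARN-509, all past the test. EDEM3 then passed under enzalutamide (-0.27, adjusted p = 0.0301), and GNPNAT1 had -0.28 under ARN-509 (adjusted p = 0.000219).

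Per length, the highest level among the enzymes in vehicle tumors was that of UAP1, at 82.3 ± 15.1 CPM per kilobase of the longest annotated transcript. GALNT7 followed at 66.0 ± 17.8, ST6GAL1 at 46.7 ± 12.9 and GNPNAT1 at 40.9 ± 3.09 CPM per kilobase. CSGALNACT1 (21.3 ± 4.42), TUSC3 (20.9 ± 1.96), ST6GALNAC1 (17.1 ± 10.1) and PGM3 (12.9 ± 2.62) had intermediate levels. GCNT1 (10.3 ± 3.39) and EDEM3 (8.05 ± 2.73) had the lowest. UAP1 exceeded GALNT7 in 14 of 15 vehicle tumors, GALNT7 exceeded ST6GAL1 in 13, and GNPNAT1 exceeded CSGALNACT1 in all 15, whereas the order of ST6GAL1 and GNPNAT1 (9 of 15), CSGALNACT1 and TUSC3 (8), TUSC3 and ST6GALNAC1 (9) and ST6GALNAC1 and PGM3 (9) was not steady from tumor to tumor. PGM3 exceeded GCNT1, and GCNT1 exceeded EDEM3, in 12 of 15 each. In the treated tumors ST6GALNAC1 was at 1.71 ± 0.926 CPM per kilobase under enzalutamide and 1.45 ± 0.907 under ARN-509, the lowest mean of the 10 in both arms.

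Within arms, some of the enzymes varied together from tumor to tumor. Pearson correlations of log2 CPM were taken over the 43 libraries after the mean of each arm was subtracted, as a description without a test, since the libraries share depth and base composition. Of 45 pairs of enzymes 35 had an r above 0, the median was 0.209, and 5 pairs had at least 0.5. Pairs of other genes were not counted, so whether these numbers exceed those of any genes is not known. After the GC adjustment 29 pairs were above 0, the median was 0.108 and 4 pairs had at least 0.5. The strongest pair, PGM3 and EDEM3, went from 0.838 to 0.459, and GALNT7 and PGM3 from 0.525 to -0.05. In the same libraries EDEM3 (-0.789), GALNT7 (-0.72) and PGM3 (-0.689) followed the level of G and C rich genes inversely. In other pairs r stayed near its value or rose after the adjustment. GALNT7 and CSGALNACT1 had 0.701 and then 0.669, and ST6GALNAC1 and UAP1 0.484 and then 0.548. GALNT7 and UAP1 had 0.444 and then 0.519, and ST6GALNAC1 and GALNT7 0.297 and then 0.515. Whether the adjustment removed technical or biological variation was not tested.

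**Figure D3:**
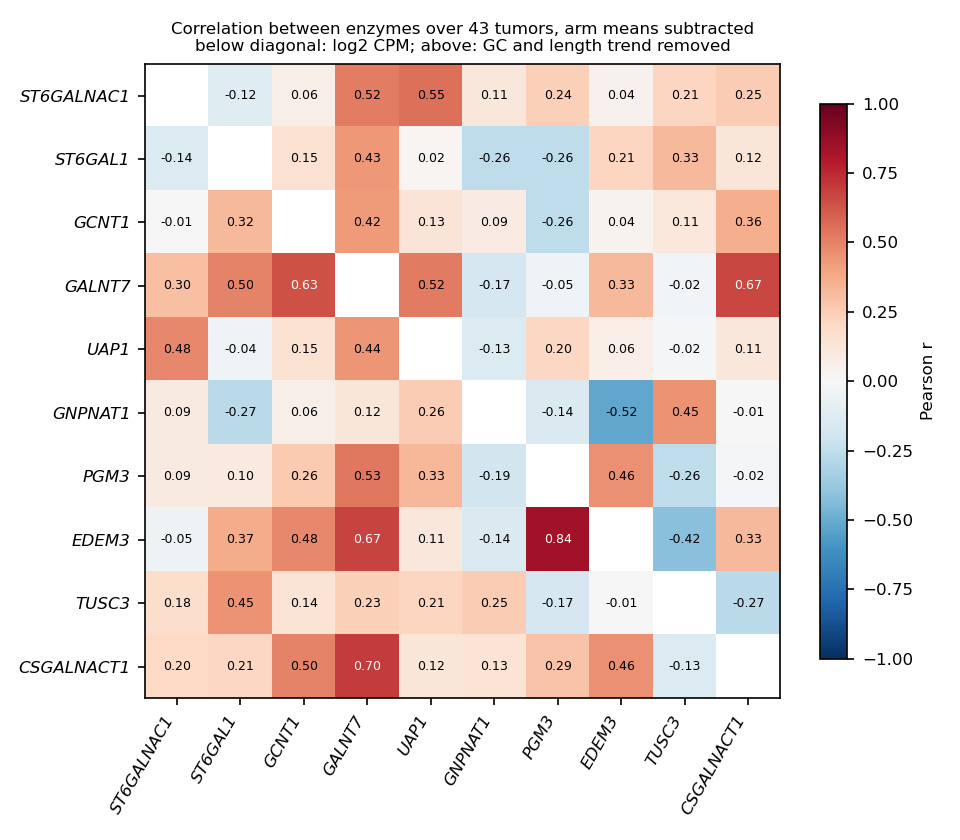
Pearson r between the enzymes over 43 tumors after subtracting arm means, below the diagonal for log2 CPM and above it after the GC adjustment (color scale from -1 to 1). PGM3 and EDEM3 drop from 0.84 to 0.46, while GALNT7 and CSGALNACT1 stay near 0.7.

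ST6GALNAC1 and UAP1, which fell under both drugs, varied together most among vehicle tumors. In the 15 vehicle tumors alone their r was 0.671, against 0.218 under enzalutamide and 0.158 under ARN-509, where UAP1 spanned a narrower range than in vehicle tumors and ST6GALNAC1 had a coefficient of variation like that of vehicle tumors (54.2% and 62.6%). Vehicle 11, with the lowest ST6GALNAC1 of its arm, had the second lowest UAP1, at 131 CPM, which lies within the range of treated tumors for both genes. ST6GALNAC1 and ST6GAL1, both sialyltransferases, had an r of -0.137 over all libraries, -0.576 in vehicle tumors and 0.584 in ARN-509 tumors.

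**Figure D4:**
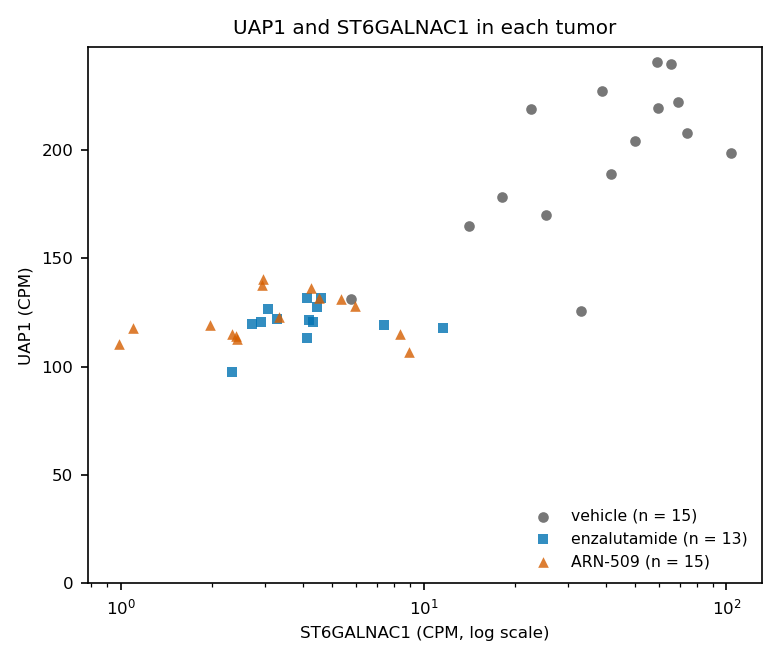
UAP1 (y axis, CPM, from 0) against ST6GALNAC1 (x axis, CPM, log scale) in each of 43 tumors, with arms by color and shape. Treated tumors form 1 cloud at low values of both genes, and 1 vehicle tumor, vehicle 11, lies at its edge.

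For each of the 3 enzymes past the test in both comparisons with vehicle, the 3 genes with the most similar pattern within arms were sought among 10438 genes of sufficient level. For ST6GALNAC1 they were SEL1L3 (r = 0.749), SEC14L2 (0.741) and GFOD2 (0.716). For UAP1 they were HLA-DMB (0.745), LOC100294145 (0.742) and DDX1 (0.723). For GALNT7 they were REPS2 (0.888), PDE3B (0.861) and RAPGEF5 (0.859). Not all of these genes followed the enzymes across the arms. SEL1L3 (-0.59 and -0.59), SEC14L2 (-1.04 and -1.03), GFOD2 (-0.70 and -0.84), HLA-DMB (-1.62 and -1.87), LOC100294145 (-0.71 and -0.64) and REPS2 (-1.02 and -0.76) fell under enzalutamide and ARN-509, with adjusted p of at most 0.000109. DDX1 had values of -0.03 and -0.05, and PDE3B of -0.31 and 0.10, which did not pass, and RAPGEF5 fell under enzalutamide (-0.55, adjusted p = 0.0112) but had -0.28 under ARN-509 (adjusted p = 0.133). Among all genes 5.67% fell under enzalutamide and 16.1% under ARN-509. The correlations of the 8 genes with a GC value were 0.619 to 0.78 after the GC adjustment. All were picked for the highest r in these same libraries, so their high values come from the choice and are a description only.

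The wider glycosylation machinery was described through 9 lists of genes, each containing 1 or more of the 10 enzymes or a neighbouring step. In the hexosamine and UDP-GlcNAc pathway (14 of 14 tested) UAP1 was the only gene to fall under enzalutamide and none rose. Under ARN-509, UAP1 and GNPNAT1 fell and 3 genes rose: OGT, which places single GlcNAc sugars on intracellular proteins (0.43 ± 0.11), MGEA5, which removes them (0.34 ± 0.07), and SLC35A3, a Golgi carrier of UDP-GlcNAc (0.35 ± 0.11). The list medians were -0.01 and 0.02. These counts are near the shares of all genes that passed, 10.8% under enzalutamide and 30.8% under ARN-509. SLC35A3 no longer passed after the GC adjustment (0.09, adjusted p = 0.234).

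Sialic acid synthesis and transport (8 of 8 tested) had 1 gene higher and 1 lower under enzalutamide, and 1 higher and 2 lower under ARN-509. Among all genes 10.8% and 30.8% passed, and the ARN-509 count is near its share. GNE, which makes the precursor of sialic acid, fell under both drugs (-0.22 ± 0.07 and -0.27 ± 0.06), although its enzalutamide call was lost without vehicle 1 (adjusted p = 0.0581) or vehicle 9 (0.0542). NANS, the sialic acid synthase, fell under ARN-509 (-0.49 ± 0.09, adjusted p = 4.83e-05). NPL, which breaks sialic acid down, rose under both from a low level, 0.815 CPM in vehicle tumors to 1.36 and 1.37 CPM (0.69 ± 0.20 and 0.66 ± 0.20).

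Among sialyltransferases 11 of 20 had enough counts to be tested. Under enzalutamide 2 fell, ST6GALNAC1 and ST3GAL6, and under ARN-509 4 fell, these and ST3GAL4 and ST3GAL2, while none rose under either drug. Among all genes 5.67% fell under enzalutamide and 16.1% under ARN-509. ST3GAL6, which caps galactose, went from 8.10 ± 2.01 CPM to 5.11 ± 1.45 and 4.91 ± 0.790 CPM (-0.65 ± 0.13, adjusted p = 0.000458, and -0.70 ± 0.13, adjusted p = 6.20e-05). ST3GAL4 had -0.34 ± 0.10 and ST3GAL2 -0.24 ± 0.09 under ARN-509. The call of ST3GAL2 was lost without any of 11 single libraries, vehicle 1, 3, 7, 8, 11, 12 or 15 or ARN-509 1, 7, 12 or 14 (adjusted p up to 0.0799), and that of ST3GAL4 after the GC adjustment (adjusted p = 0.0808).

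The polypeptide GalNAc transferases, the family of GALNT7, did not move as a block. Of 13 tested, 3 fell and 2 rose under enzalutamide, and 3 fell and 3 rose under ARN-509. Among all genes 10.8% passed under enzalutamide and 30.8% under ARN-509. Beside GALNT7, GALNT12 fell by 0.84 ± 0.18 and 0.70 ± 0.17 (adjusted p = 0.00101 and 0.00219), and GALNTL4 by 0.40 ± 0.10 and 0.71 ± 0.10 (adjusted p = 0.00653 and 5.68e-07). GALNT1 rose under ARN-509 (0.27 ± 0.06, adjusted p = 0.00175), a call lost after the GC adjustment (0.09, adjusted p = 0.173). The list medians were 0.04 and 0.10.

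The list of O-glycan core and extension enzymes (11 of 15 tested) takes in B4GALT genes, not all of which act on O-glycans. Of this list GCNT1 and B4GALT6 fell under enzalutamide. Under ARN-509, B4GALT1, B4GALT2 and B4GALT3 fell and C1GALT1, which makes the core on which GCNT1 acts, rose from 15.3 ± 3.50 to 21.5 ± 3.25 CPM (0.48 ± 0.10, adjusted p = 0.000284). Among all genes 10.8% passed under enzalutamide and 30.8% under ARN-509, and the ARN-509 count is near its share. B4GALT6 had -0.46 ± 0.12 under enzalutamide (adjusted p = 0.00900) and 0.01 under ARN-509, where the GC adjustment turned it to -0.23 (adjusted p = 0.0159). B4GALT3 had -0.22 ± 0.08 under ARN-509, a call lost without vehicle 8 (adjusted p = 0.0552) or ARN-509 14 (0.0506) and after the GC adjustment (0.106).

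The N-glycan lists, to which TUSC3 and EDEM3 belong, had few genes past the test under enzalutamide, where 10.8% of all genes passed. None of 12 oligosaccharyltransferase subunits, 1 of 23 genes of dolichol-linked assembly (SRD5A3, higher) and 2 of 25 genes of trimming and quality control (MAN1C1 and ERLEC1, higher) passed the test. Under ARN-509, where 30.8% of all genes passed, 4 of 12 subunits, 8 of 23 genes of assembly and 10 of 25 of trimming did so, which is near the share of all genes. Of the subunits 4 fell, among them DDOST (-0.22 ± 0.06), RPN1 (-0.21 ± 0.06) and C11orf10 (-0.33 ± 0.11). In dolichol-linked assembly 7 fell and 1 rose, with DPAGT1, the enzyme of the opening step, at -0.29 ± 0.05 (adjusted p = 8.07e-06), DOLPP1 at -0.31 ± 0.07 and DPM2 at -0.40 ± 0.10. In trimming and quality control 6 fell and 4 rose, with the chaperone CALR at -0.54 ± 0.11 and PRKCSH at -0.25 ± 0.07, and MAN1C1, a trimming mannosidase, at 0.57 ± 0.12 and 0.53 ± 0.12 under enzalutamide and ARN-509. DDOST after the GC adjustment had -0.10 (adjusted p = 0.119) and PRKCSH -0.09 (adjusted p = 0.144) under ARN-509.

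Chondroitin sulfate and linker genes (17 of 21 tested) had 2 lower under enzalutamide, CSGALNACT1 and CHSY1, the chain polymerase (-0.35 ± 0.08, adjusted p = 0.00301), and none higher. Under ARN-509 CHST14, UST (-0.64 ± 0.23) and B3GALT6 (-0.18 ± 0.06) fell and none rose. Among all genes 5.67% fell under enzalutamide and 16.1% under ARN-509, and the ARN-509 count is near its share. The call of UST was lost without vehicle 4, 7 or 9 (adjusted p up to 0.066). B3GALT6 lost its call without vehicle 8, 11 or 14 or ARN-509 5, 6, 12 or 14 (adjusted p up to 0.068), and after the GC adjustment (adjusted p = 0.338), when 1 gene of the list passed under ARN-509.

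Between the drugs, 7 of 12 oligosaccharyltransferase subunits were higher under enzalutamide and none lower, and 8 genes were higher and 4 lower in dolichol-linked assembly. In trimming and quality control 8 were higher and 5 lower, EDEM3 among the latter. Among all genes 12.2% were higher and 14.6% lower under enzalutamide. After the GC adjustment the genes past the test in these lists numbered 3, 2 and 3, and in the other 6 lists 0. Among all genes the count went from 3623 (1647 higher and 1976 lower under enzalutamide) to 791 (480 higher and 311 lower), and with library totals as the only scaling 1202 were higher and 2263 lower.

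**Figure D5:**
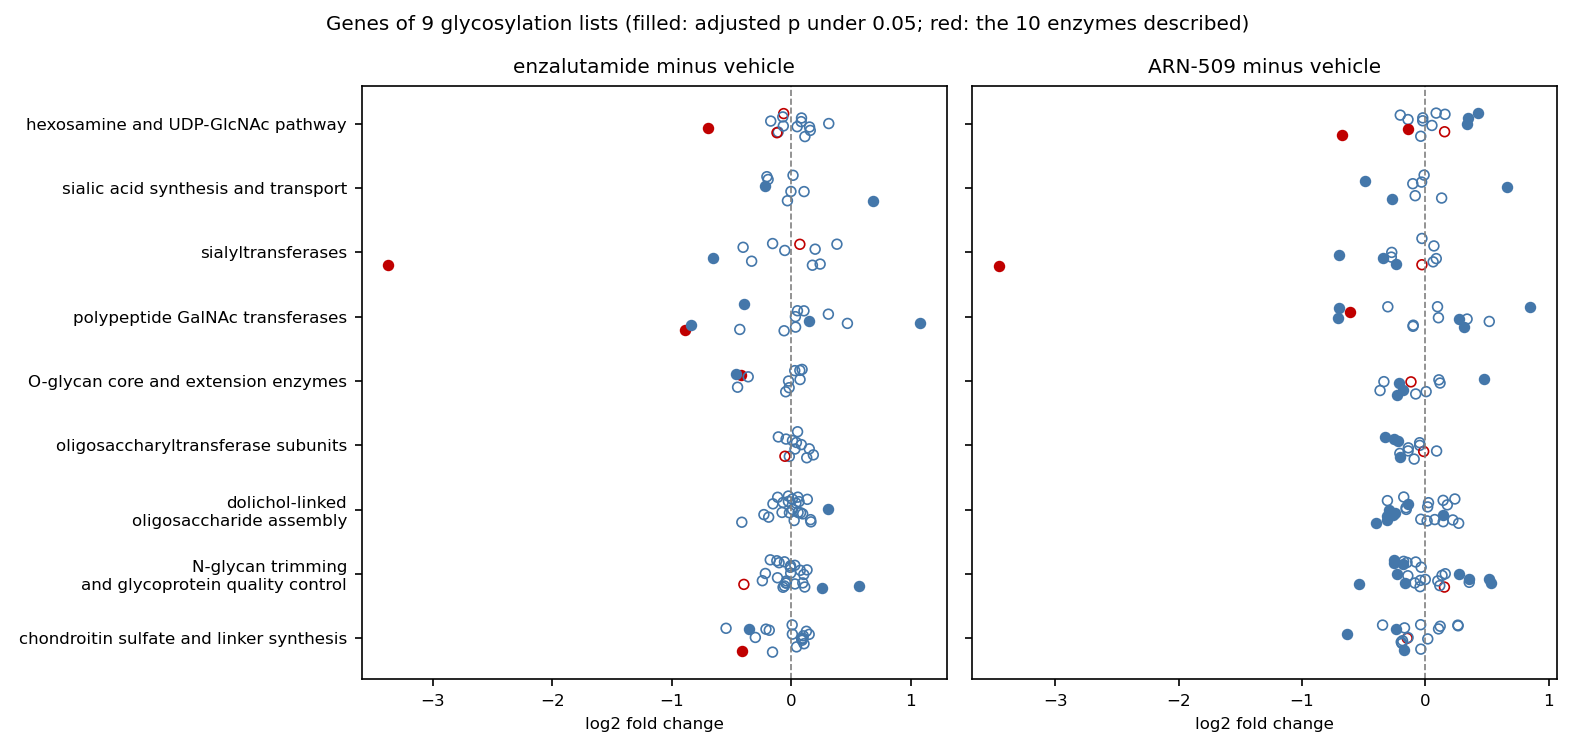
Log2 fold change (x axis) of every tested gene of the 9 glycosylation lists (rows) under enzalutamide (left) and ARN-509 (right). Filled points passed the edgeR test and red marks the 10 enzymes. ST6GALNAC1 lies far to the left of every other gene in both panels, and GALNT7 and UAP1 are among the lowest of their rows.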

How the data were processed

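RNA was measured in 44 tumors, 1 library each, with a kit that does not mark strand. The authors deposited raw counts per gene symbol. The build hg19 and the tools HTSeq 0.6.1, TopHat2 2.1.0, bcl2fastq 1.8.4 and Picard 1.77 are named per the submitters' processing notes. How mouse reads were handled, which annotation was counted and whether strand was used is not given in the sources used here.

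Columns were matched to tumors by sample label and arms taken from sample titles. Without enzalutamide 4, 43 libraries with TMM scaling entered 1 edgeR 4.0.16 quasi-likelihood model (R 4.3.3, robust, arm as the only term) on the 13520 genes kept by filterByExpr, with Benjamini-Hochberg adjustment over all of them and a threshold of 0.05. SEs were derived from the F statistic and 95% intervals from the t distribution. CPM were taken over TMM-scaled totals of tested genes. Depth limits precision for low genes, and counts of different tumors of an arm differed by more than sampling noise. P-values set the difference between arms against the spread between tumors.

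The 10 genes and the lists were chosen with earlier results of these data known. Besides the 10, up to 3 called genes of each list with the smallest p against vehicle were given values, and the 3 genes most like each enzyme called in both comparisons with vehicle. Likeness is Pearson r of log2 CPM (prior count 2) with arm means subtracted, among genes whose log2 CPM averaged 3 or more. GC content and length came from the longest GENCODE transcript of a GRCh38 annotation matched by symbol or RefSeq synonym (95.6% of tested genes), and were removed per library by splines with 4 df. This GC adjustment, the fit without vehicle 8 and 10, and the other alternatives of scaling, filter, tool (DESeq2 1.42.0, limma 3.58.1), samples and block are described at the end. The fit without vehicle 8 and 10, the GC adjustment with the block and the correlations after it were chosen after seeing the data. On simulated counts the test recovered 84% and 98% of genes changed 1.5-fold and 2-fold for enzalutamide against vehicle (13476 genes). The shares were 91% and 96.9% for ARN-509 against vehicle (13488 genes), and 80.8% and 95% between the drugs (13471 genes). These counts were drawn for each gene independently and without outlying libraries, so the shares need not hold for the real libraries. A linear GC trend simulated in ARN-509 libraries gave 1692 false calls, and 10 after the adjustment (12894 genes). The simulation held no expression changes linked to GC content. It therefore checks only that the adjustment removes such a trend, and cannot tell which calls in the real libraries were false. Some marker genes are not reported here.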

Additional observations from a re-analysis of the deposited data

How the results depend on the processing

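ST6GALNAC1, UAP1 and GALNT7 stayed past the test against vehicle under both drugs in every setting run, those that left out 1 library included. Of 360 values of the 10 enzymes under other settings, 331 kept their side of the threshold, 7 lost a call and 22 gained one. A sign change was counted as a reversal only where either fit passed the test, and there were 0. Values that passed in neither fit did change sign: after the GC adjustment PGM3 and EDEM3 under ARN-509 went from 0.16 and 0.15 to -0.02 each. Of 1290 values with 1 library left out, 1236 kept their side of the threshold. The number of enzymes past the test between the drugs, 1 in the reported fit, was 3 with library totals, 3 by DESeq2, 5 by limma voom, 4 with only the arms compared, 4 without vehicle 8 and vehicle 10, and 0 after the GC adjustment. Leaving out 1 library gave 1 to 4, and it rose above 1 in 18 of 43 fits, those without vehicle 1, 7, 8, 10, 11, 12, 13 or 14, enzalutamide 8, 10, 12 or 14, or ARN-509 2, 3, 4, 5, 11 or 13. Against vehicle the number ran from 4 to 6 for enzalutamide and from 3 to 5 for ARN-509 when 1 library was left out. With a minimum of 1.5-fold beside the threshold, 3 enzymes and 501 genes passed for enzalutamide against vehicle, 685 genes for ARN-509 against vehicle, and 0 enzymes and 242 genes between the drugs. By limma voom 2547 genes passed for enzalutamide against vehicle, in place of 1455. After the GC adjustment 791 genes differed between the drugs in place of 3623, and B4GALT6 turned to -0.23 under ARN-509 (adjusted p = 0.0159). Leaving out 1 library gave 1145 to 1794 genes for enzalutamide and 3261 to 5045 for ARN-509 against vehicle, and 2680 to 4269 between the drugs. The causes of these shifts were not tested.

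Replicate numbers do not pair the tumors: of 41 same-numbered pairs 15 had a correlation of deviations above 0.1 (-0.446 to 0.677), and 5 of 43 libraries correlated best with their own number. With the replicate block 2 enzymes differed between the drugs. With the block and the GC adjustment together, 0 enzymes and 810 genes differed between the drugs, B4GALT6 had -0.24 under ARN-509 (adjusted p = 0.0281), and GALNT1 reversed to 0.0057 between the drugs (adjusted p = 0.961).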
